A study of Mus musculus with 9 samples.

Results

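The ATF4 amino acid and one-carbon program was taken here as 42 mouse genes chosen by name: the transcription factor ATF4 with other stress regulators, the enzymes that make serine, asparagine and proline, the folate and transsulfuration enzymes, amino acid transporters and cytosolic aminoacyl-tRNA synthetases. All 42 names were found among the 55487 genes listed for each library, and 41 of them reached the level needed for a test. The question was how these genes stood in murine splenic CD4+ T cells kept in medium, activated through the T cell receptor, or activated in the presence of TRAIL (TNF-related apoptosis-inducing ligand), a TNF family protein that binds a death receptor. RNA was sequenced from 9 libraries, 3 per group, and every value is a level in TPM, the share of a gene among all transcripts of the library, which is scaled for transcript length and for the total of the library. The cells came from wild-type C57BL/6 mice, which were female and 6 to 7 weeks old by the study's methods, and were enriched from spleen by negative selection. In the medium group the cells were cultured in RPMI-1640 medium with fetal calf serum alone, for a time the labels do not state. The stimulated group received anti-CD3 antibody at 3 µg/ml and anti-CD28 antibody at 2 µg/ml for 24 h, and the TRAIL group received the same antibodies together with TRAIL at 10 µg/ml for 24 h. No group with TRAIL but without the antibodies was analysed here, and the labels do not say whether the 3 libraries of a group came from separate mice.

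ATF4 is a basic leucine zipper transcription factor whose mRNA is translated preferentially when the initiation factor eIF2 is phosphorylated, as happens when amino acids run short or the endoplasmic reticulum is stressed, so its protein level is set largely at translation. Its targets import and make amino acids, charge tRNAs and feed serine-derived carbon units into folate metabolism, and activated T cells are known to depend on these pathways as they grow and divide. A feedback group of ATF4 targets, among them Ddit3, Trib3, Chac1 and Sesn2, limits translation, growth signaling or glutathione.

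With stimulation the program was high, and with TRAIL added it was close to its level in medium. The summed level of all members was 1919, 2094 and 1969 TPM in the 3 medium libraries, 8346, 9362 and 9160 TPM in the stimulated libraries, and 2188, 2218 and 2095 TPM in the TRAIL libraries. The stimulated libraries stood apart from all others, and the TRAIL libraries lay just above the medium libraries. A gene was called changed in limma with a Benjamini-Hochberg adjusted p under 0.05 over all 15536 genes tested and a log2 fold change of at least 1 in size, on the log2(TPM + 1) scale. Stimulation against medium called 37 of 41 tested members higher and 0 lower, against 12.4% of all tested genes higher and 19.5% lower. TRAIL with stimulation against stimulation alone called 37 of 41 lower and 1 higher, against 14.3% of all tested genes lower and 16.6% higher. TRAIL with stimulation against medium called 4 of 41 higher and 2 lower, against 2.49% of all tested genes higher and 2.13% lower. The median log2 difference over the tested members was 2.49, -2.70 and -0.12 in these comparisons, beside -0.15, 0.011 and -0.18 over all tested genes. Each pair of these comparisons shares 3 libraries, so their values stand side by side and are not independent. TRAIL was given together with the antibodies, so the groups are not stages in time. Words such as rose, fell or went describe differences between groups. 6 members (Chac1, Aldh1l2, Cth, Slc7a3, Slc7a11 and Slc1a4) passed the filter of at least 1 TPM in 3 libraries through the stimulated libraries alone, and the counts over tested members include them. Each of these 6 had to differ to be tested, so their differences are given as descriptions, without a p-value. Since the libraries are bulk RNA, fewer cells of a type and less RNA per cell cannot be told apart in any of these values.

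**Figure D1:**
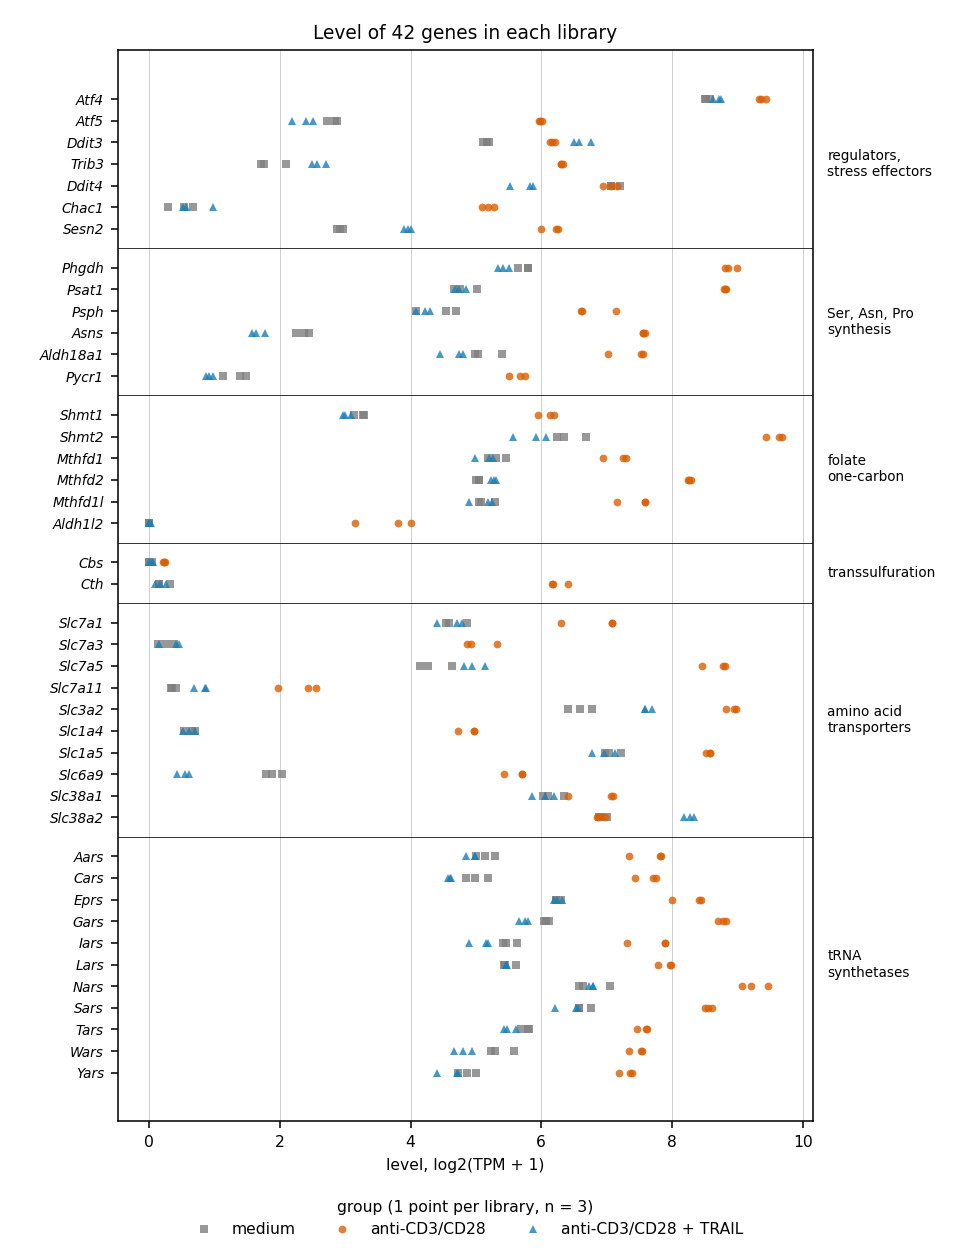
Level of each of the 42 members on the log2(TPM + 1) scale (horizontal axis), with 1 point per library, squares for medium, circles for anti-CD3/CD28 and triangles for anti-CD3/CD28 with TRAIL, and members in rows by role. The circles lie to the right of the other points in nearly every row, with Ddit3, Ddit4 and Slc38a2 as the visible departures.

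Markers of other cells also moved between the groups. Summed levels of 9 B cell markers ranged from 6382 to 7054 TPM in medium, from 739 to 812 TPM with stimulation and from 3150 to 3642 TPM with TRAIL, and 14 myeloid markers ranged from 2204 to 2451, from 72.1 to 84.2 and from 1610 to 1844 TPM. Erythroid markers ranged from 2093 to 2549, from 25.6 to 40.8 and from 614 to 663 TPM. The T cell list ranged from 3219 to 3530, from 2608 to 2666 and from 3152 to 3572 TPM, with Cd3e and Cd4 present in every library. CD8 T cell markers ranged from 110 to 118, from 94.2 to 105 and from 46.9 to 49.4 TPM, and the 5 NK cell markers from 271 to 359, from 225 to 301 and from 98.9 to 110 TPM. The NK sum was carried by Gzma, which averaged 149, 230.0 and 51.3 TPM, while the other 4 NK markers were called lower with stimulation and the list had a median log2 difference of 1.08 in TRAIL against stimulation. The part of these differences in the members' values was not tested. Scaling by the median of ratios moved the median of all genes by 0.17 on the log2 scale in stimulation against medium and by 0.15 in TRAIL against medium, and changed the split of all calls from 1926 higher and 3033 lower to 2411 and 2523 in the first and from 387 higher and 331 lower to 513 and 190 in the second. With quantile normalization the splits were 2434 and 2240, and 526 and 219.

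To show which members carry the DNA element of this pathway, promoter windows from 250 bases before to 50 bases after the transcription start were taken from RefSeq (GRCm38.p6) for the 32 members found there by symbol. The core of the C/EBP-ATF response element, TGATGNAA on either strand (read as TTNCATCA on the other), occurred in the windows of 11 of these 32 members (34.4%), beside 1219 of 27025 genes (4.51%) in the whole table. A match is a description of letters and not a site shown to be bound. The stretches of 30 bases around the match are given for 9 of the 11 members with a match, in order of the size of their difference between TRAIL and stimulation, each written in the direction of the gene with the match in capitals.
Asns, chr6:7693214-7693243, minus strand: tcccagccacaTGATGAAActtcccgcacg
Pycr1, chr11:120643833-120643862, minus strand: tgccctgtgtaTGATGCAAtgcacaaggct
Chac1, chr2:119351038-119351067, plus strand: cttccctgccgTTGCATCActcctgccagg
Slc1a4, chr11:20332699-20332728, minus strand: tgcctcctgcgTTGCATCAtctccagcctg
Trib3, chr2:152344028-152344057, minus strand: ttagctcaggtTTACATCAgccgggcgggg
Gars, chr6:55037960-55037989, plus strand: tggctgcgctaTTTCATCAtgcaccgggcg
Yars, chr4:129189895-129189924, plus strand: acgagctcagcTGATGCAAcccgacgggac
Iars, chr13:49682126-49682155, plus strand: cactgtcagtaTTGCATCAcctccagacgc
Tars, chr15:11399655-11399684, minus strand: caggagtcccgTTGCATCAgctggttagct
In these members the core read TGATGCAA in all but Asns, Trib3 and Gars, on one strand or the other. Slc7a11, the cystine transporter, was another member with a match. The windows of Atf4, Ddit3, Ddit4 and Slc38a2 held no run of these letters, and neither did those of Psat1, Shmt2, Atf5, Phgdh and Slc6a9, which were among the members that fell when TRAIL was added. Bases outside the windows were not searched, so a gene without a match may carry the element elsewhere. Members not found by symbol, among them Cth, Slc7a3 and Slc7a5, were not examined.

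The 7 regulators and stress effectors did not move as a block: 5 rose with stimulation, 5 fell when TRAIL was added, and in TRAIL against medium 2 rose and 1 fell. Of all tested genes, 12.4% were called higher with stimulation and 14.3% lower with TRAIL against stimulation. In TRAIL against medium, 2.49% of them were called higher and 2.13% lower. Atf4 (ENSMUSG00000042406, chromosome 15 from 80255184 to 80257541, plus strand, GRCm38) was the most abundant of the 7 regulators in every group. Its levels were 362, 383 and 367 TPM in medium, 694, 655 and 646 TPM with stimulation, and 396, 419 and 431 TPM with TRAIL. The 3 groups did not overlap, and the Atf4 differences were 0.84 on the log2 scale with stimulation (SE 0.08, adjusted p = 6.7e-06 in limma), -0.68 with TRAIL against stimulation (adjusted p = 3.4e-05) and 0.16 with TRAIL against medium (adjusted p = 0.15). None reached the fold change needed for a call, although the stimulation difference did so after scaling by the median of ratios, at 1.03.

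Trib3, a pseudokinase that binds ATF4 and dampens it, stood at 2.39, 3.25 and 2.26 TPM in medium, 80.0, 78.1 and 77.9 TPM with stimulation, and 4.61, 5.51 and 4.92 TPM with TRAIL. Trib3 rose by 4.46 with stimulation and fell by 3.73 on the log2 scale with TRAIL (SE 0.12, adjusted p = 4.6e-09). Its TRAIL libraries lay above all medium libraries without reaching a call, at a log2 difference of 0.73 (adjusted p = 0.0021). Chac1, an enzyme that degrades glutathione, had 0.589, 0.439 and 0.215 TPM in medium, 37.9, 35.2 and 33.3 TPM with stimulation, and 0.432, 0.474 and 0.960 TPM with TRAIL. The difference of Chac1 between TRAIL and stimulation was -4.50 on the log2 scale, and its medium and TRAIL libraries overlapped. Atf5, a close relative of ATF4, went from 6.35, 6.20 and 5.56 TPM through 62.1, 63.8 and 61.6 TPM to 4.70, 4.27 and 3.54 TPM across medium, stimulation and TRAIL. Atf5 rose by 3.18 with stimulation and fell by 3.62 on the log2 scale with TRAIL (SE 0.11, adjusted p = 3.0e-09), ending below all medium libraries. The locus of Atf5 overlaps those of Nup62 and Il4i1 on the other strand, and since the strand setting of the read assignment was not given in the sources used here, reads in the overlap cannot be told apart.

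Ddit3 and Ddit4 departed from this course in opposite directions. Ddit3 encodes CHOP, a transcription factor of the stress response (ENSMUSG00000025408, chromosome 10 from 127290774 to 127296288, plus strand). It had 34.8, 33.5 and 35.8 TPM in medium, 72.7, 69.4 and 70.7 TPM with stimulation, and 89.4, 94.8 and 108 TPM with TRAIL, so that the TRAIL libraries were the highest of all. Ddit3 rose by 1.46 on the log2 scale in TRAIL against medium (SE 0.09, adjusted p = 4.6e-06), whereas TRAIL against stimulation gave 0.45 (adjusted p = 0.0016), short of a call. Its call in stimulation against medium, at 1.01, sat on the threshold and was lost without medium replicate 2 (0.99), without stimulated replicate 1 (0.99) or with a pseudocount of 5 (0.93). A second, short record under the name Ddit3 never exceeded 0.291 TPM and was not tested, and the main record shares 68 bases with Mars1 on the other strand. Ddit4 encodes REDD1, an inhibitor of mTORC1 signaling (chromosome 10 from 59949669 to 59951834, minus strand). Its levels were 133, 146 and 133 TPM in medium and 142, 133 and 122 TPM with stimulation, which overlapped, and 57.9, 55.5 and 44.8 TPM with TRAIL, below all others. Ddit4 fell by 1.32 on the log2 scale against stimulation (SE 0.11, adjusted p = 3.0e-06) and by 1.37 against medium (adjusted p = 2.6e-05). Sesn2, a leucine-binding protein that also restrains mTORC1, had 6.33, 6.81 and 6.57 TPM in medium, 62.8, 73.7 and 75.7 TPM with stimulation, and 14.0, 14.6 and 15.1 TPM with TRAIL. Sesn2 fell by 2.20 on the log2 scale with TRAIL against stimulation (adjusted p = 3.7e-08) but was above medium by 1.04 (SE 0.10, adjusted p = 8.4e-05), a call that was lost with a pseudocount of 5, at 0.76.

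**Figure D2:**
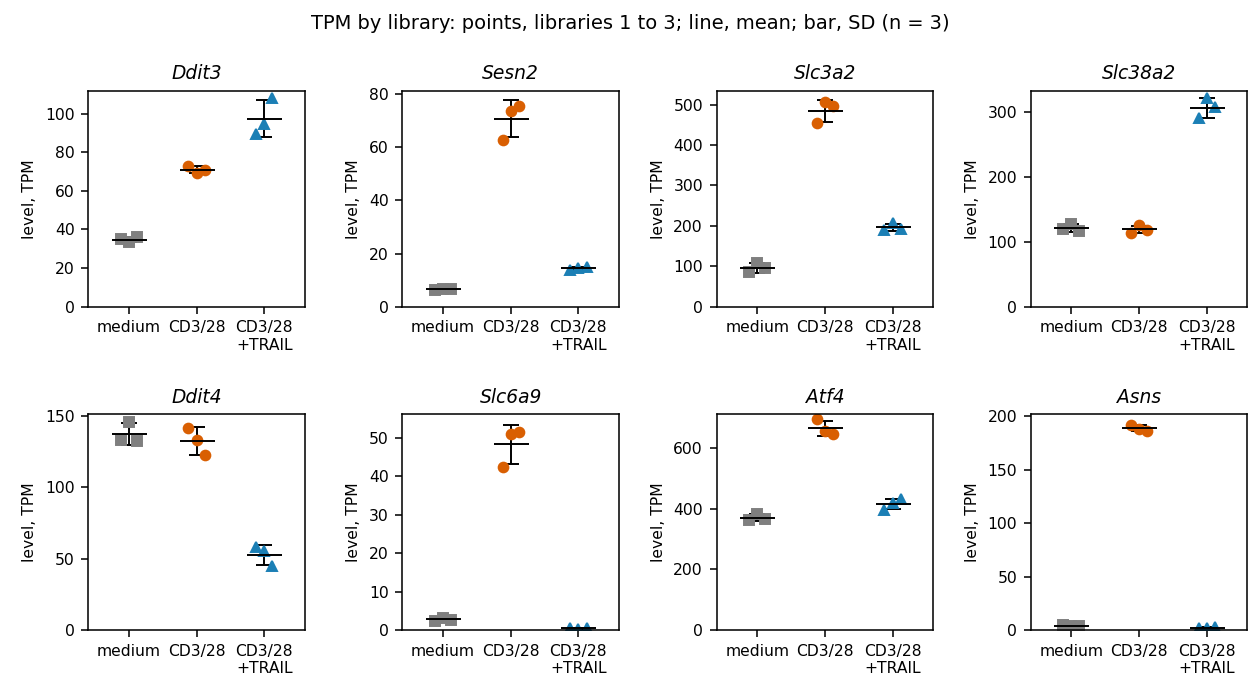
Levels in TPM (vertical axes from 0) of single libraries (points), with the mean (line) and SD (bar, n = 3), for the 6 members called in TRAIL against medium and for Atf4 and Asns. Ddit3 and Slc38a2 were highest with TRAIL, Ddit4 and Slc6a9 lowest with TRAIL, and Sesn2 and Slc3a2 lay between medium and stimulation.

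All 6 enzymes of serine, asparagine and proline synthesis rose with stimulation and all 6 fell when TRAIL was added, with median log2 differences of 3.57 and -3.76. In TRAIL against medium, 2.49% of all tested genes were called higher and 2.13% lower. Near those shares, 0 of the 6 enzymes were called. Their summed level was 144, 136 and 143 TPM in medium, 1466, 1437 and 1410 TPM with stimulation, and 118, 112 and 108 TPM with TRAIL, and the TRAIL libraries were below every medium library. Asns, asparagine synthetase (chromosome 6 from 7675169 to 7693254, minus strand), whose promoter stretch with the element is printed above, had the largest difference of the group. Asns was at 4.42, 3.74 and 4.14 TPM in medium, at 192, 188 and 186 TPM with stimulation, and at 2.09, 1.99 and 2.43 TPM with TRAIL. The mean with stimulation was 46.0 times that in medium and 87.0 times that with TRAIL, and with TRAIL it fell by 5.91 on the log2 scale (SE 0.10, adjusted p = 1.1e-10). Against medium, the Asns libraries with TRAIL were all lower, by a log2 difference of -0.69 (adjusted p = 0.0011) that did not reach a call. Pycr1, which completes proline synthesis in mitochondria, had 1.19, 1.79 and 1.62 TPM in medium, 44.5, 52.7 and 49.9 TPM with stimulation, and 0.822, 0.977 and 0.883 TPM with TRAIL, and it fell by 4.72 on the log2 scale (SE 0.13, adjusted p = 1.3e-09). Psat1, the aminotransferase of serine synthesis, had 31.3, 24.4 and 25.9 TPM in medium, 452, 448 and 444 TPM with stimulation, and 25.6, 27.7 and 24.7 TPM with TRAIL, so that medium and TRAIL overlapped. Phgdh, the first enzyme of that pathway, averaged 52.7, 473 and 41.9 TPM in the same order, Psph, the last, 21.0, 112 and 17.4 TPM, and Aldh18a1, the first enzyme of proline synthesis, 34.6, 167 and 24.5 TPM. Psph overlaps the abundant Cct6a on the other strand, and their reads cannot be told apart there.

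The 6 folate enzymes, which move the carbon unit of serine through tetrahydrofolate, likewise all rose with stimulation and all fell with TRAIL, with medians of 3.01 and -3.04. In TRAIL against medium, 2.49% of all tested genes were called higher and 2.13% lower. Near those shares, 0 of the 6 folate enzymes were called. Shmt2, the mitochondrial serine hydroxymethyltransferase, was the most abundant, with 74.3, 101 and 80.1 TPM in medium, 690, 799 and 820 TPM with stimulation, and 66.4, 59.5 and 46.6 TPM with TRAIL. Shmt2 fell by 3.73 on the log2 scale between stimulation and TRAIL (SE 0.15, adjusted p = 1.6e-08). Its cytosolic counterpart Shmt1 had 8.70, 7.78 and 8.79 TPM in medium, 61.1, 72.3 and 69.1 TPM with stimulation, and 7.52, 6.84 and 7.02 TPM with TRAIL, and it fell by 3.07 on the log2 scale (SE 0.11, adjusted p = 5.2e-09). In both genes the TRAIL libraries lay below all medium libraries, by log2 differences of -0.56 for Shmt2 and -0.21 for Shmt1. Their adjusted p was 0.020 and 0.15 in limma, neither was called, and the median of all tested genes was -0.18. Aldh1l2, which oxidizes formyl-tetrahydrofolate in mitochondria, was listed at the lowest value of the table in all medium libraries, at 7.83, 15.0 and 13.1 TPM with stimulation, and at that lowest value in all TRAIL libraries but the one labelled replicate 3, at 0.0186 TPM. Mthfd2, the mitochondrial dehydrogenase and cyclohydrolase of the pathway, averaged 31.7, 308 and 37.6 TPM, Mthfd1, its cytosolic relative, 39.0, 144 and 34.5 TPM, and Mthfd1l, the mitochondrial formyl-tetrahydrofolate synthetase, 34.3, 175 and 33.7 TPM. The summed level of the 4 mitochondrial enzymes (Shmt2, Mthfd2, Mthfd1l and Aldh1l2) over that of the cytosolic Shmt1 and Mthfd1 was 3.19 ± 0.22 in medium, 6.00 ± 0.21 with stimulation and 3.09 ± 0.11 with TRAIL (SD, n = 3), and the stimulated ratios lay above all others.

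Transsulfuration turns homocysteine into cysteine in 2 steps, of which the first, by Cbs, was barely present: Cbs never exceeded 0.184 TPM and was not tested. Cth, cystathionine gamma-lyase, the second step (chromosome 3 from 157894248 to 157925077, minus strand), had 0.109, 0.251 and 0.105 TPM in medium, 83.9, 70.7 and 71.6 TPM with stimulation, and 0.191, 0.0679 and 0.119 TPM with TRAIL. Cth was therefore near absent in medium and with TRAIL, where the libraries overlapped, and near the level of Trib3 or Ddit3 with stimulation. Its differences were 6.05 with stimulation and -6.08 with TRAIL against stimulation on the log2(TPM + 1) scale (SE 0.12), a scale that understates the difference of a gene so low in 2 groups.

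**Figure D3:**
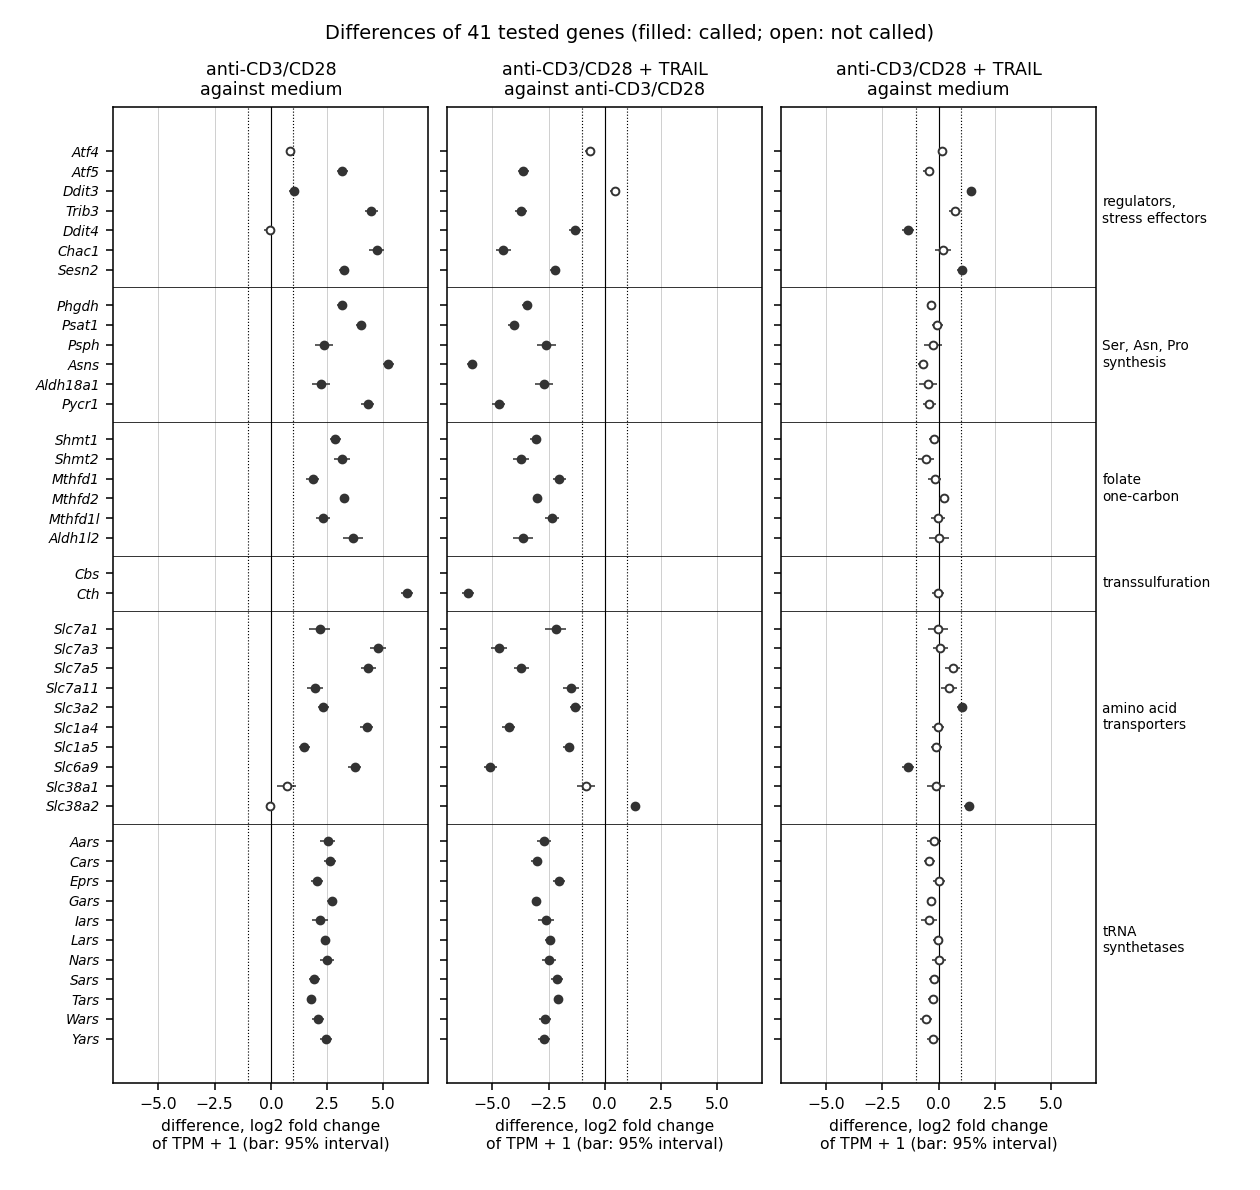
Log2 fold change of each tested member, with its 95% interval from limma, in the 3 comparisons, with members grouped by role. Differences of stimulation against medium lie mostly to the right of 1, those of TRAIL against stimulation to the left of -1, and those of TRAIL against medium mostly between these lines.

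The 10 amino acid transporters did not move as a block either: 8 rose with stimulation, 8 fell and 1 rose when TRAIL was added, and in TRAIL against medium 2 rose and 1 fell. Of all tested genes, 12.4% were called higher with stimulation, and 14.3% lower and 16.6% higher with TRAIL against stimulation. In TRAIL against medium, 2.49% of them were called higher and 2.13% lower. The transporters counted include Slc7a3, Slc1a4 and Slc7a11, which passed the filter through the stimulated libraries alone. Among those that rose and fell, Slc7a3, a cationic amino acid transporter, had 0.306, 0.103 and 0.198 TPM in medium, 39.2, 29.3 and 28.1 TPM with stimulation, and 0.379, 0.107 and 0.331 TPM with TRAIL, a log2 difference of -4.70 between TRAIL and stimulation (SE 0.16). Slc1a4, a neutral amino acid transporter whose promoter match is printed above, had 0.582, 0.629 and 0.448 TPM, then 25.3, 30.4 and 30.3 TPM, then 0.620, 0.430 and 0.530 TPM, a log2 difference of -4.28 (SE 0.12). For both transporters the medium and TRAIL libraries overlapped.

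Slc6a9, the glycine transporter GLYT1 (chromosome 4 from 117834506 to 117875198, plus strand), went below its medium level with TRAIL. It had 2.46, 3.08 and 2.67 TPM in medium, 42.3, 51.1 and 51.4 TPM with stimulation, and 0.518, 0.348 and 0.457 TPM with TRAIL. Slc6a9 fell by 5.09 on the log2 scale against stimulation (SE 0.13, adjusted p = 7.8e-10) and by 1.37 against medium (adjusted p = 5.1e-05), although the second call was lost with a pseudocount of 5. Slc38a2, the glutamine and alanine transporter SNAT2 (chromosome 15 from 96687392 to 96699730, minus strand), took the opposite course. Its levels were 120, 128 and 117 TPM in medium and 114, 125 and 118 TPM with stimulation, which overlapped, and 291, 322 and 308 TPM with TRAIL, above all others. Slc38a2 rose by 1.36 on the log2 scale against stimulation (SE 0.08, adjusted p = 2.8e-07) and by 1.33 against medium (adjusted p = 4.5e-06), and it was the member called higher when TRAIL was added. Slc38a1 or SNAT1, which lies nearby on chromosome 15, had 64.1, 80.7 and 67.7 TPM in medium, 84.3, 136 and 132 TPM with stimulation, and 72.3, 65.5 and 56.8 TPM with TRAIL. The Slc38a1 difference between TRAIL and stimulation, -0.82 (SE 0.18, adjusted p = 0.0024), was not called, and it reached -1.05 and a call without stimulated replicate 1. The ratio of Slc38a2 to Slc38a1 levels was 1.73 ± 0.15 in medium, 1.05 ± 0.26 with stimulation and 4.78 ± 0.71 with TRAIL (SD, n = 3).

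The chains of the leucine transporter also came apart. Slc3a2, the heavy chain CD98 that Slc7a5 and Slc7a11 need to reach the membrane, had 84.4, 108 and 95.1 TPM in medium, 454, 506 and 495 TPM with stimulation, and 190, 206 and 192 TPM with TRAIL, 3 levels that did not overlap. Slc3a2 fell by 1.30 on the log2 scale with TRAIL against stimulation (SE 0.10, adjusted p = 1.8e-06) and was above medium by 1.03 (adjusted p = 9.9e-05), a call that was lost without medium replicate 1 (0.94) or TRAIL replicate 2 (0.99). Slc7a5, the light chain LAT1 that carries large neutral amino acids, averaged 19.6, 411 and 30.4 TPM and fell by 3.71 on the log2 scale with TRAIL (adjusted p = 1.6e-08). The ratio of Slc7a5 to Slc3a2 levels was 0.204 ± 0.016 in medium, 0.845 ± 0.066 with stimulation and 0.155 ± 0.013 with TRAIL (SD, n = 3), and the 3 stimulated ratios exceeded all others. Slc7a1, the arginine transporter CAT1, averaged 24.4, 116 and 24.0 TPM, Slc1a5, the glutamine transporter ASCT2, 134, 377 and 124 TPM, and Slc7a11, which exchanges cystine for glutamate, 0.286, 4.05 and 0.747 TPM. Slc7a11 passed the filter through the stimulated libraries alone, so its differences are descriptions. They were 1.95 in stimulation against medium and -1.51 in TRAIL against stimulation. With a pseudocount of 5 both were under 1 in size, at 0.77 and -0.65.

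All 11 cytosolic aminoacyl-tRNA synthetases, which join amino acids to their tRNAs, rose with stimulation and fell with TRAIL, and they did so within a narrow range. Their log2 differences ran from 1.79 to 2.69 with stimulation and from -3.04 to -2.03 when TRAIL was added, with medians of 2.41 and -2.62. In TRAIL against medium, 2.49% of all tested genes were called higher and 2.13% lower. Near those shares, 0 of the 11 synthetases were called. Their summed level was 606, 637 and 633 TPM in medium, 2761, 3363 and 3211 TPM with stimulation, and 566, 558 and 514 TPM with TRAIL, so that they made up the largest share of the members' TPM in the stimulated libraries among the role groups. Gars, for glycine, had 66.2, 68.6 and 64.7 TPM in medium, 415, 452 and 441 TPM with stimulation, and 52.9, 54.5 and 49.3 TPM with TRAIL, and it fell by 3.04 on the log2 scale (SE 0.08, adjusted p = 1.3e-09). Cars, for cysteine, had 30.8, 35.4 and 27.7 TPM, then 171, 207 and 214 TPM, then 23.3, 23.4 and 22.9 TPM, and it fell by 3.03 (SE 0.12, adjusted p = 1.0e-08). Aars, for alanine, had 30.9, 38.1 and 34.3 TPM, then 161, 227 and 224 TPM, then 30.8, 30.8 and 27.7 TPM, and it fell by 2.72 (SE 0.14, adjusted p = 8.1e-08). The TRAIL libraries lay below all medium libraries for Gars, Cars and Aars, by log2 differences of -0.34, -0.41 and -0.20. Their adjusted p was 0.011, 0.023 and 0.31 in limma, none was called, and the median of all tested genes was -0.18. For Aars the highest TRAIL library and the lowest medium library were 30.85 and 30.90 TPM. Among the others, Nars, for asparagine, averaged 108, 611 and 108 TPM, Eprs, the fused enzyme for glutamate and proline, 74.9, 313 and 75.0 TPM, Wars, for tryptophan, 40.5, 177 and 27.0 TPM, and Tars, for threonine, 53.5, 188 and 44.4 TPM. Lars, Sars, Iars and Yars, for leucine, serine, isoleucine and tyrosine, averaged between 28.1 and 98.9 TPM in medium, between 158 and 376 TPM with stimulation and between 23.7 and 86.0 TPM with TRAIL.

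**Figure D4:**
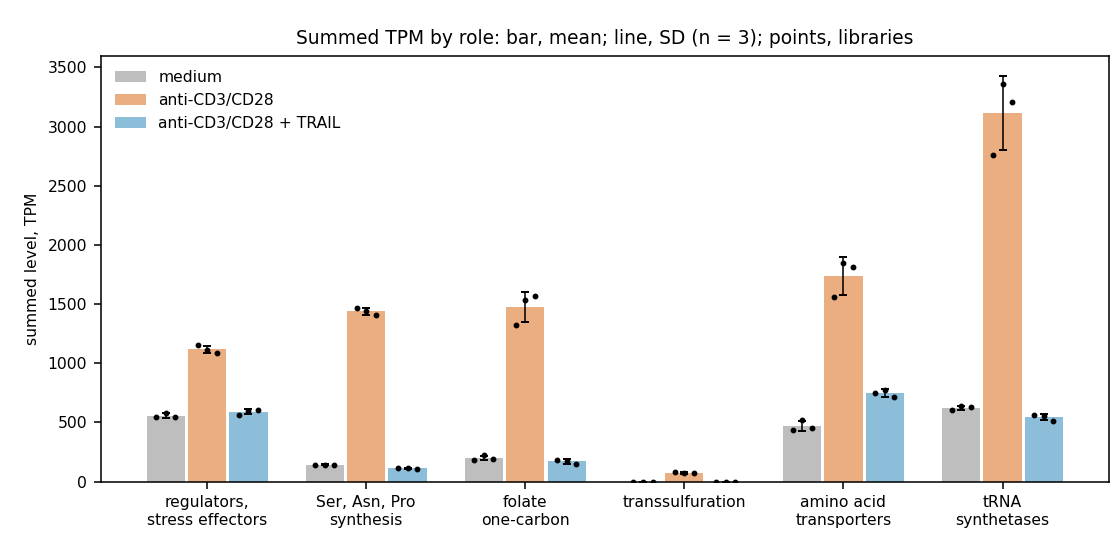
Summed level in TPM (vertical axis from 0) of the members of each role group, with bars for the mean of 3 libraries, lines for the SD and points for single libraries. The stimulated libraries lie above the others in every role group, and the transporter sums with TRAIL, 751, 778 and 715 TPM, exceed those in medium, 436, 521 and 454 TPM, as do the levels of Slc38a2 and Slc3a2 within that group.

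Within the stimulated group, replicate 1 gave the lowest level of the 3 libraries in 29 of 41 tested members, with a median difference from the other libraries of -0.18 on the log2 scale. Across the members, 40 averaged at least 10 TPM with stimulation, 28 in medium and 29 with TRAIL, while 28, 5 and 5 averaged at least 100 TPM. Of the 35 members not called in TRAIL against medium, 34 had a 95% interval of the log2 difference within -1 and 1, and the interval held 0 for 20 of them. Of the same 35, 12 had an adjusted p under 0.05 in limma, 9 of them lower with TRAIL and 3 higher (Trib3, Slc7a5 and Mthfd2). At any fold change, 11 of the 41 tested members reached this lower with TRAIL and 7 higher. Of all 15536 tested genes, 3816 reached it lower and 1247 higher, so the members' share lower was near that of all genes.

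The wider pathway was read from lists of related genes. Of 17 tested eIF2 kinases, eIF2 phosphatase subunits and other ATF4 partners or targets, TRAIL against stimulation called 3 higher and 8 lower, with a median of -0.61, beside 16.6% of all tested genes called higher and 14.3% called lower; the share called higher is near that of all genes. Gpt2, a mitochondrial alanine aminotransferase, averaged 0.986, 41.8 and 0.721 TPM in medium, stimulation and TRAIL, a log2 difference of -4.63 between TRAIL and stimulation, and Eif4ebp1, an inhibitor of cap-dependent translation, averaged 7.31, 138 and 4.94 TPM and fell by 4.55 on the log2 scale. The 3 called higher, named here after their values were seen, were Ppp1r15a, the stress-induced subunit GADD34 of the eIF2 phosphatase, Eif2ak3, the endoplasmic reticulum eIF2 kinase PERK, and Gdf15, a secreted stress cytokine. Ppp1r15a averaged 468 TPM in medium, 80.0 TPM with stimulation and 773 TPM with TRAIL, Eif2ak3 averaged 37.6, 14.3 and 52.8 TPM, and Gdf15 averaged 0.954, 0.701 and 32.8 TPM. The first 2 rose by 3.26 and 1.83 on the log2 scale against stimulation (adjusted p = 6.5e-09 and 1.2e-06 in limma), and the difference of Gdf15 was 4.27. Vldlr and Stc2 met the filter of 3 libraries only through the stimulated libraries, so the counts for this list include genes that had to differ to be tested. Gdf15 also reached 1 TPM in medium replicates 1 and 2 (1.00 and 1.22 TPM), and Gpt2 in medium replicates 1 and 3 (1.13 and 1.06 TPM). Gdf15 would not have met the filter without the TRAIL libraries, nor Gpt2 without the stimulated libraries. Against medium, 3 of the 17 rose and 0 fell with TRAIL, beside 2.49% of all tested genes called higher and 2.13% called lower. The 3, also named after their values were seen, were Gdf15, Atf3 and Cebpb, which encode the cytokine and a pair of bZIP factors. They rose by 4.08, 4.86 and 1.53. Atf3 averaged 2.07, 79.1 and 88.6 TPM and so, unlike most members, was far above its medium level with TRAIL.

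Of 12 other tested cytosolic synthetases and scaffold proteins, 10 fell and 0 rose with TRAIL against stimulation, with a median of -1.51. Of all tested genes, 14.3% were called lower and 16.6% higher. Mars1, for methionine, averaged 30.3, 137 and 22.5 TPM and fell by 2.57, and Aimp2, a scaffold of the synthetase complex, averaged 29.0, 81.5 and 21.4 TPM and fell by 1.88 on the log2 scale. Of 17 mitochondrial synthetases, stimulation called 0, and TRAIL against stimulation called 3 lower and 0 higher with a median of -0.22, a share near the 14.3% of all tested genes called lower. Among those of at least 10 TPM, the differences were largest for Rars2, at -1.31, and Yars2, at -1.16. Of 22 other folate, methionine cycle and glycine cleavage genes, 10 fell and 0 rose in TRAIL against stimulation, with a median of -0.51. The shares of all tested genes were 14.3% called lower and 16.6% called higher. Slc19a1, the reduced folate carrier, averaged 14.5, 65.7 and 11.5 TPM and fell by 2.43, and Gcsh, the carrier protein of glycine cleavage, averaged 10.6, 51.6 and 9.68 TPM and fell by 2.30 on the log2 scale.

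**Figure D5:**
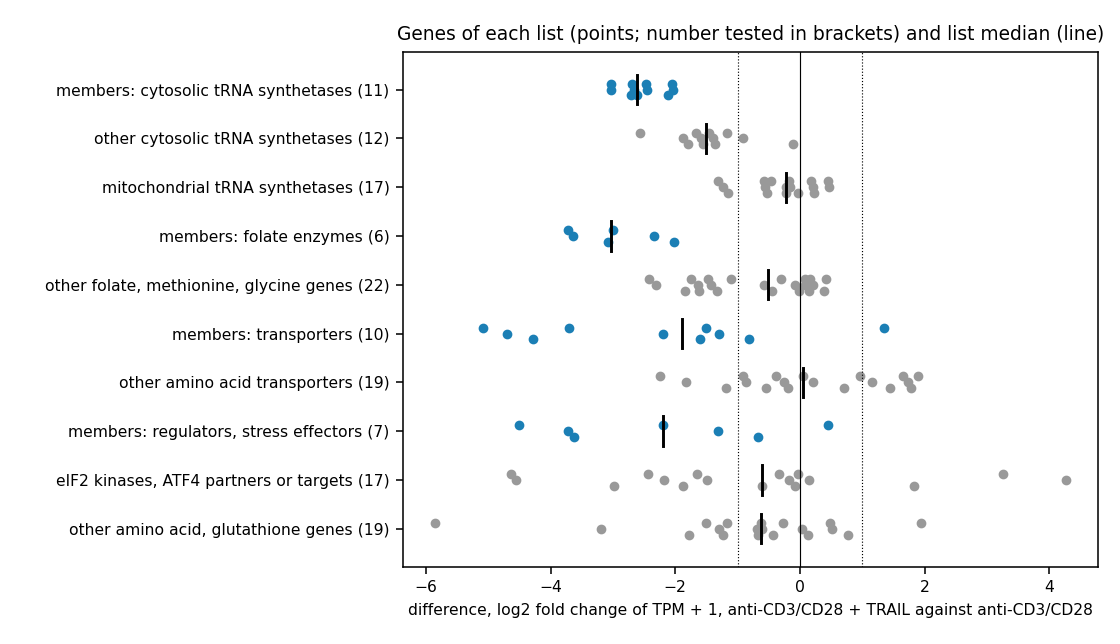
Log2 fold change in TRAIL against stimulation (horizontal axis) of every tested gene (points), with members in blue by role, related genes in grey by list, and the list median as a line; dotted lines mark -1 and 1. The member synthetases have a median of -2.62, the other cytosolic synthetases -1.51 and the mitochondrial synthetases -0.22.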

How the data were processed

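The authors trimmed paired reads with Trimmomatic 0.36, aligned them with HISAT2 2.1.0 and assembled levels with StringTie 2.1.2; the deposited table holds TPM per gene and library, already scaled by the authors to 1 common total in every library. The study's methods name mouse GRCm38, while the submitters' processing notes list GRCh38; the loci of all 43 table records of the members match GENCODE M21 (GRCm38). Read counts, annotation release and strand setting were not given in the sources used here, so depth is unknown; libraries had 13691 to 14909 genes of at least 1 TPM. The labels do not state that replicates are separate mice, so p-values measure only the spread between these libraries, which may be technical.

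Genes that reached 1 TPM in 3 or more of the 9 libraries (15536 of 55487) were fitted in 1 model with limma 3.58.1 (R 4.3.3; lmFit, eBayes with trend) on log2(TPM + 1), without a replicate block, with Benjamini-Hochberg adjustment over all of them; fold changes of low genes are understated on this scale. Members and lists were chosen with earlier results of these data known. Library values are given for Atf4 and Ddit3, the 3 members of each role group (averaging 10 TPM or more in some group) with the largest difference between TRAIL and stimulation, members called in TRAIL against medium, and members called against their role group; other members are given by means or ranges, and related lists by the 2 called genes, averaging 10 TPM or more in some group, with the largest difference. Slc38a1, Slc7a5, Psph and the other members given by name were described by means or by contrast with a partner. Alternatives were pseudocounts of 0.1 and 5, no filter or one of 5 TPM, median-of-ratios and quantile scaling, no variance trend, only the groups compared, a replicate block, no fold change threshold, and leaving out each library. Of the markers and promoter matches, 1 gene and 1 stretch are not reported here.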

Additional observations from a re-analysis of the deposited data

How the results depend on the processing

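Depth is unknown, 3 libraries per group limit the precision, and the origin of the replicates is not stated. The members called higher in stimulation against medium and lower in TRAIL against stimulation kept counts within 1.5 times of 37 under every alternative, and stayed between 30 and 37 and between 31 and 37 when 1 library was left out; without a stimulated library 35 members were tested, since 6 passed the filter through those libraries alone. The median of the members was 2.68 in stimulation against medium with median-of-ratios scaling (2.39 to 2.52 leaving out libraries), and in TRAIL against stimulation -2.50 with a pseudocount of 5 and -2.52 with quantile normalization (-2.74 to -2.60 leaving out libraries). In TRAIL against medium it turned to 0.0097 with median-of-ratios scaling (-0.20 to -0.032 leaving out libraries). Without a fold change threshold, TRAIL against stimulation called 2 higher, and TRAIL against medium 7 higher and 11 lower of 41, by construction. At that setting TRAIL against medium called 1247 higher and 3816 lower of all 15536 tested genes, a share lower near that of the members. With the threshold, a pseudocount of 5 left 1 lower (Ddit4) in TRAIL against medium, and leaving out libraries gave 3 to 4 higher and 2 lower. Differences near 0 changed sign: Ddit4 in stimulation against medium was 0.14 with median-of-ratios scaling and 0.0048 without stimulated replicate 3 (from -0.10 leaving out libraries), Slc38a2 was 0.16, 0.0074 without medium replicate 2 and 4.3e-04 without stimulated replicate 1 (from -0.065 leaving out libraries), and Slc38a1 in TRAIL against medium was 0.043 with median-of-ratios and 0.010 with quantile scaling. The cause was not tested. The replicate numbers in the labels are shared across groups, but deviations of same-numbered libraries correlated at -0.306 to 0.295, so they were not treated as pairs; with a replicate block the counts were 37 higher and 0 lower, 1 higher and 37 lower, and 4 higher and 2 lower, and no call changed.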

Other observations

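Of 19 tested genes of amino acid and glutathione metabolism outside the members, 7 fell and 1 rose in TRAIL against stimulation, with a median of -0.62, beside 14.3% of all tested genes called lower and 16.6% called higher. Bcat1, the cytosolic branched-chain aminotransferase, had 1.23, 1.29 and 1.31 TPM in medium, 79.8, 82.2 and 83.3 TPM with stimulation, and 0.498, 0.358 and 0.420 TPM with TRAIL, and it fell by 5.86 on the log2 scale (SE 0.10, adjusted p = 1.1e-10 in limma). Srm, spermidine synthase, averaged 34.7, 208 and 22.1 TPM and fell by 3.20. Glul, glutamine synthetase, the gene that rose and is named after its values were seen, averaged 118, 34.9 and 137 TPM and rose by 1.94 with TRAIL against stimulation.

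Of 19 other tested amino acid transporters, 6 rose and 3 fell with TRAIL against stimulation, with a median of 0.051, beside 16.6% of all tested genes called higher and 14.3% called lower. Slc7a2, a cationic transporter, averaged 1.24, 11.1 and 1.55 TPM and fell by 2.24, and Slc43a3 averaged 15.0, 34.5 and 9.01 TPM and fell by 1.82 on the log2 scale. Of those that rose, named after their values were seen, Slc43a2, a neutral amino acid transporter, averaged 29.2, 6.42 and 23.2 TPM and rose by 1.74, and Slc38a9, a lysosomal arginine sensor, averaged 34.3, 9.04 and 30.7 TPM and rose by 1.65. The other 4 that rose, Slc1a3, Slc7a8, Slc7a7 and Slc38a5, averaged below 10 TPM in every group. B cell and myeloid markers were lower with stimulation than with TRAIL as well, and their part in the rises was not tested.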
